A study of Mus musculus with 12 samples.

Results

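Axon guidance ligands and receptors were examined in mouse hippocampal cultures that had received a microRNA mimic. The group held the semaphorins, plexins, neuropilins, Slits, Robo receptors, netrins, netrin-G proteins, Dcc, Unc5 receptors, Eph receptors and ephrins. Members were the protein-coding genes whose symbols start with Sema, Plxn, Slit (without the Slitrk family), Robo, Ntn, Unc5, Epha, Ephb or Efn, together with Nrp1, Nrp2 and Dcc. Of 72 such genes, 71 had at least 5 counts in at least 6 of 12 libraries and were tested, among 18847 tested genes of 48709 in all. The member closest to this filter from inside was Sema3g, with 5 counts or more in 11 libraries and a mean of 7.42, and the gene outside it was Ntn5, with 0 such libraries and a mean of 2.17. Unc50 and Unc5cl share the symbol prefix but are not netrin receptors, so they were kept apart from the families below.

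RNA was sequenced from primary hippocampal cultures of CD1 mouse embryos at embryonic day 17. At day 10 in vitro the cultures received lipid nanoparticles that carried either a mimic of miR-148a-3p (6 samples) or a negative control oligonucleotide (6 samples), and they were collected 48 h later, at day 12. Both groups therefore received nanoparticles, and according to the methods of the study ApoE4 was given with them and hippocampi of several embryos were pooled before plating. The labels do not say whether the samples of a group came from separate preparations, so p-values measure the spread between these samples, which may be technical.

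Guidance ligands are secreted or held on the cell surface, and receptors on the growing axon read them as attraction or repulsion. In the hippocampus the same molecules also shape dendrites, spines and synapses once axons have arrived. Most class 3 semaphorins act through neuropilins and class A plexins, while the other semaphorin classes bind plexins directly. Slits repel axons through Robo receptors. Netrin-1 attracts axons through Dcc and repels them through Unc5 receptors, and Eph receptors and ephrins signal in both directions at cell contacts.

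A microRNA recognises transcripts mainly through its seed, bases 2 to 8. The oligonucleotides are shown because their seeds set the sites searched in the members, with the seed in capitals and each written 5′ to 3′.
miR-148a-3p mimic: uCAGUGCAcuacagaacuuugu
negative control: uCACCGGGuguaaaucagcuug
The mimic was identical to the RefSeq mature sequence of mmu-miR-148a-3p (GRCm38.p6). Because GEO's design text names a siRNA as the control, statements on its seed assume that the sequence on the reagent list was the one used. Seed sites were TGCACTG or GCACTGA for the mimic and CCCGGTG or CCGGTGA for the control, on the transcript strand, and an 8-base site holds both forms at 1 place.

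Neuron markers were abundant in every library, with a summed level of 5606 to 6258 CPM in the control and 5787 to 6082 CPM in the mimic libraries (CPM, counts scaled to a common library total), and 2 of 10 were lower with the mimic. Of the lists that moved, astrocyte markers had 7 of 10 higher and 1 lower (4948.5 to 5432 against 5807 to 6263 CPM), oligodendrocyte lineage markers 6 of 11 higher and 1 lower (429.9 to 725 against 812 to 1005 CPM) and proliferation markers 6 of 6 higher (158 to 196 against 331 to 353 CPM). Of the endothelial markers 2 of 5 tested were lower (46.6 to 68.7 against 28.3 to 50.8 CPM, mostly Kdr). Mural markers had 2 of 6 tested lower and 1 higher (88.1 to 162 against 62.5 to 74.7 CPM). Ependymal markers had 3 of 5 lower (86.0 to 99.5 against 64.9 to 84.1 CPM). The remaining lists had at most 1 marker past the threshold: interneuron 1 of 6 higher (301 to 337 against 318 to 334 CPM), microglia 1 of 8 lower (10.4 to 13.1 against 8.90 to 20.2 CPM) and fibroblast 1 of 7 higher (125 to 181 against 75.3 to 203 CPM). No marker was at 0 in all libraries. Library totals ran from 20018234 to 37149112 counts in the control and from 28316456 to 33808253 in the mimic group. Control replicate 1 stood apart from the others on the second principal component (47.0). Control replicates 2 to 6 were graded there, at 6.98, -8.07, -16.8, -15.2 and -14.8. In chi-square per degree of freedom between libraries, control replicates 4 and 5 were closest (1.66) and control replicates 1 and 4 furthest apart (35.2). In bulk RNA, fewer cells of a type and less RNA per cell cannot be told apart, and the part of these marker shifts in the results below was not tested.

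Many guidance genes changed, more of them downward than upward. With the quasi-likelihood test of edgeR, 21 of 71 members fell and 10 rose at an adjusted p under 0.05, while 40 did not pass. Over all tested genes the share past the threshold was 22.2%, with 11.5% higher and 10.7% lower, against 43.7% of the members. Among genes with a mean of at least 100 counts 28.4% passed, and 28 of 60 members did. Of the 34 receptors 12 fell and 5 rose, and of the 35 ligands 9 fell and 5 rose. In 17 members the ranges of the 6 control and 6 mimic libraries did not overlap (10 lower, 7 higher), against 13.3% of all tested genes. Most changes were moderate. The median size of the log2 fold change among the 31 called members was 0.23, and 7 of them exceeded 0.5. The median over the 71 members was -0.023, beside -0.012 over all tested genes, and leaving out 1 library moved the members' median to between -0.071 (without control replicate 5) and -0.015 (without mimic replicate 2). Together the members took 0.611 to 0.650% of all counts in the control and 0.589 to 0.613% in the mimic libraries.

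**Figure D1:**
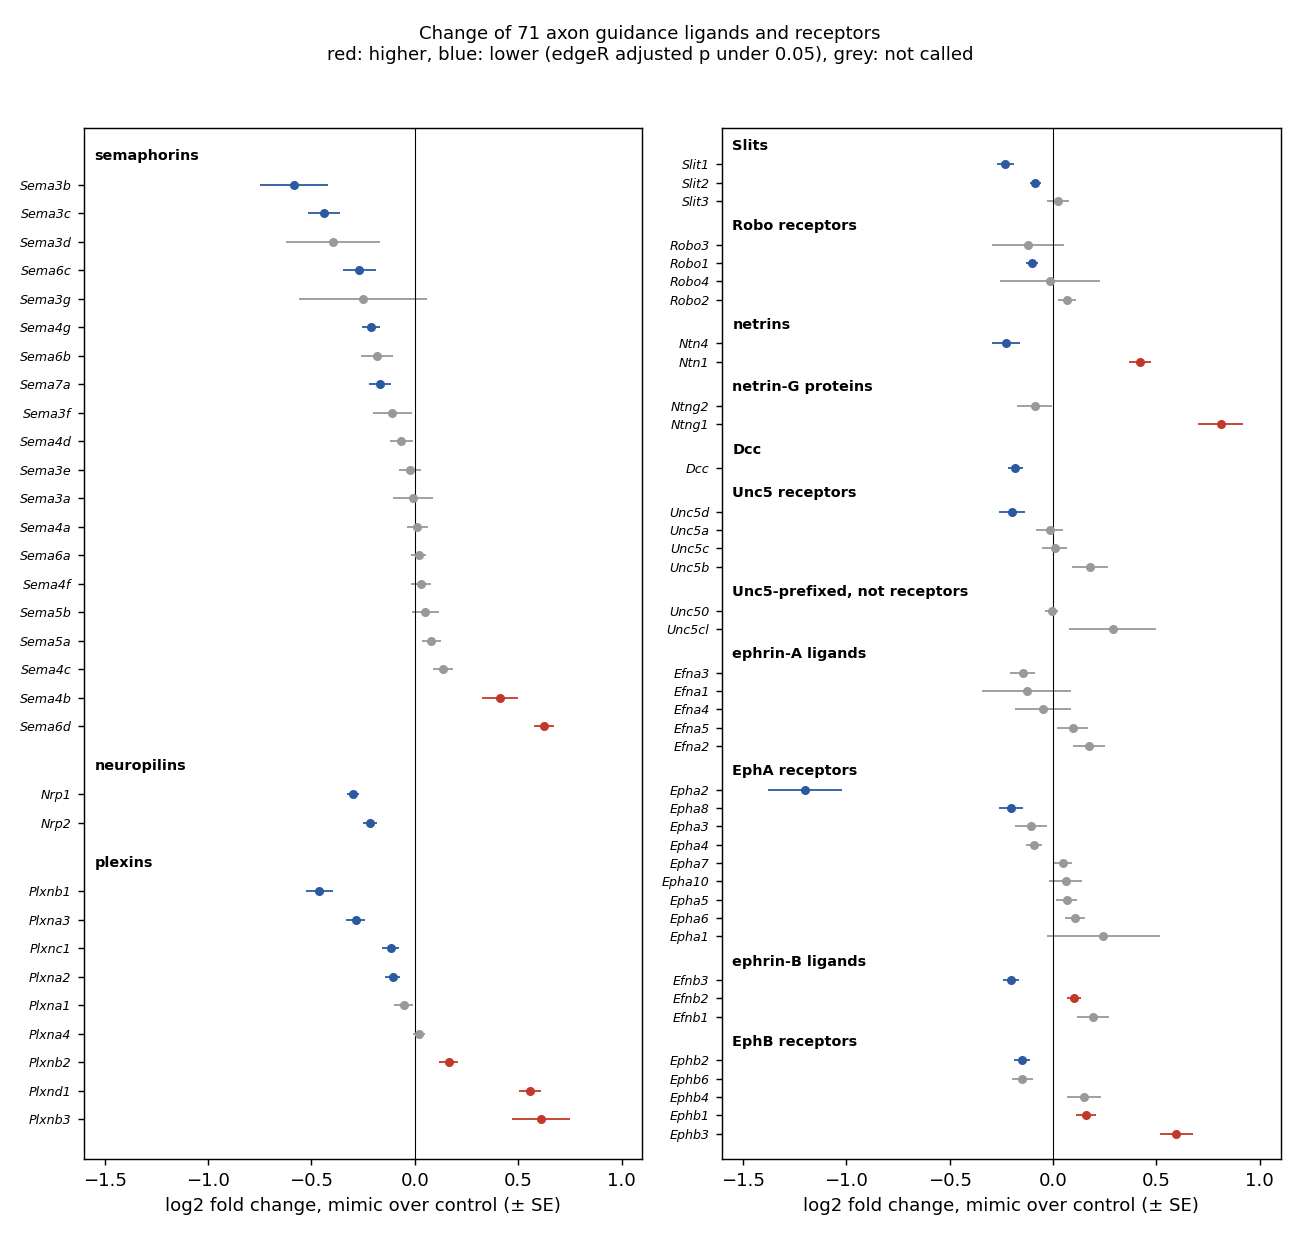
Log2 fold change of each of the 71 members, mimic over control, with its standard error as a bar, grouped by family; red marks members that rose, blue those that fell and grey those that did not pass an edgeR adjusted p of 0.05. The blue points outnumber the red (21 against 10), both neuropilins are blue, and no ephrin-A ligand is coloured.

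Per kilobase of exon, the most abundant member was Efnb3, which encodes the transmembrane ligand ephrin-B3, at 99.2 ± 4.67 CPM per kilobase in the control group (SD, n = 6). Nrp2 followed with 53.3 ± 1.83 and Epha4 with 46.8 ± 2.65 CPM per kilobase. The next 3 levels were those of Plxna1 (37.7 ± 2.498), Nrp1 (37.4 ± 0.744) and Slit1 (36.5 ± 2.10), and these neighbours differed by less than their spread. In the mimic group the first 3 kept their order with 86.2 ± 3.75, 45.9 ± 1.73 and 44.0 ± 1.096 CPM per kilobase, the latter pair lying closer than in the control group. At the other end stood Sema3g with 0.0609 ± 0.0106 and Epha1 with 0.0721 ± 0.0244 CPM per kilobase in the control group.

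Both neuropilins, the ligand-binding subunits of the class 3 semaphorin receptor, fell with the mimic. Nrp1, which binds Sema3a, ran from 359.9 to 379 CPM with a median of 364 in the control libraries and from 288 to 309 CPM with a median of 297 in the mimic libraries. All 6 mimic libraries lay below all 6 control libraries. The log2 fold change was -0.30 (SE 0.030, adjusted p = 1.05e-06). Nrp2, the neuropilin that prefers Sema3f, ran from 592 to 655 CPM (median 638) in the control and from 517.5 to 571 CPM (median 545.5) in the mimic group, again without overlap. Its log2 fold change was -0.22 (SE 0.035, adjusted p = 0.000168).

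Among the 9 plexins, the signalling subunits, 4 fell and 3 rose. Plxnb1, the receptor of Sema4d, had 163 to 220.3 CPM (median 175) in the control and 122 to 139.6 CPM (median 129.5) in the mimic group. The highest control value was that of replicate 1, and the groups did not overlap. Plxnb1 fell by 0.46 on the log2 scale (SE 0.066, adjusted p = 6.04e-05). Plxna3, a partner of the neuropilins, had 122.5 to 147 CPM (median 133.5) against 103.5 to 114 CPM (median 110.1), with no overlap. It fell by 0.29 (SE 0.046, adjusted p = 0.000172). Plxnd1, which binds Sema3e without a neuropilin, went the other way, from 16.9 to 21.4 CPM (median 18.3) in the control to 26.7 to 28.1 CPM (median 27.2) in the mimic libraries. These ranges were also apart, and Plxnd1 rose by 0.56 (SE 0.053, adjusted p = 6.48e-07). Plxna4, the main plexin partner of Nrp1 in Sema3a signalling, had 283 to 305 CPM (median 299) in the control and 296 to 309 CPM (median 300.4) in the mimic group, with 5 mimic libraries inside the control range. Its log2 fold change of 0.02 (SE 0.029, adjusted p = 0.688) did not pass and was 0.0062 without control replicate 4.

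Within class B, Plxnb1 fell while Plxnb2 (0.16, SE 0.048, adjusted p = 0.0209) and Plxnb3 (0.61, SE 0.14, adjusted p = 0.00352) rose. Plxnb3 rested on a mean of 40.3 counts, whereas Plxnb1 and Plxnb2 had 4587 and 6369. In class A, Plxna2 fell by 0.11 (SE 0.035, adjusted p = 0.0332), and Plxna1 did not pass (-0.05, adjusted p = 0.441; -0.024 without control replicate 1). Plxnc1, the receptor of Sema7a, fell by 0.12 (SE 0.040, adjusted p = 0.0415).

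**Figure D2:**
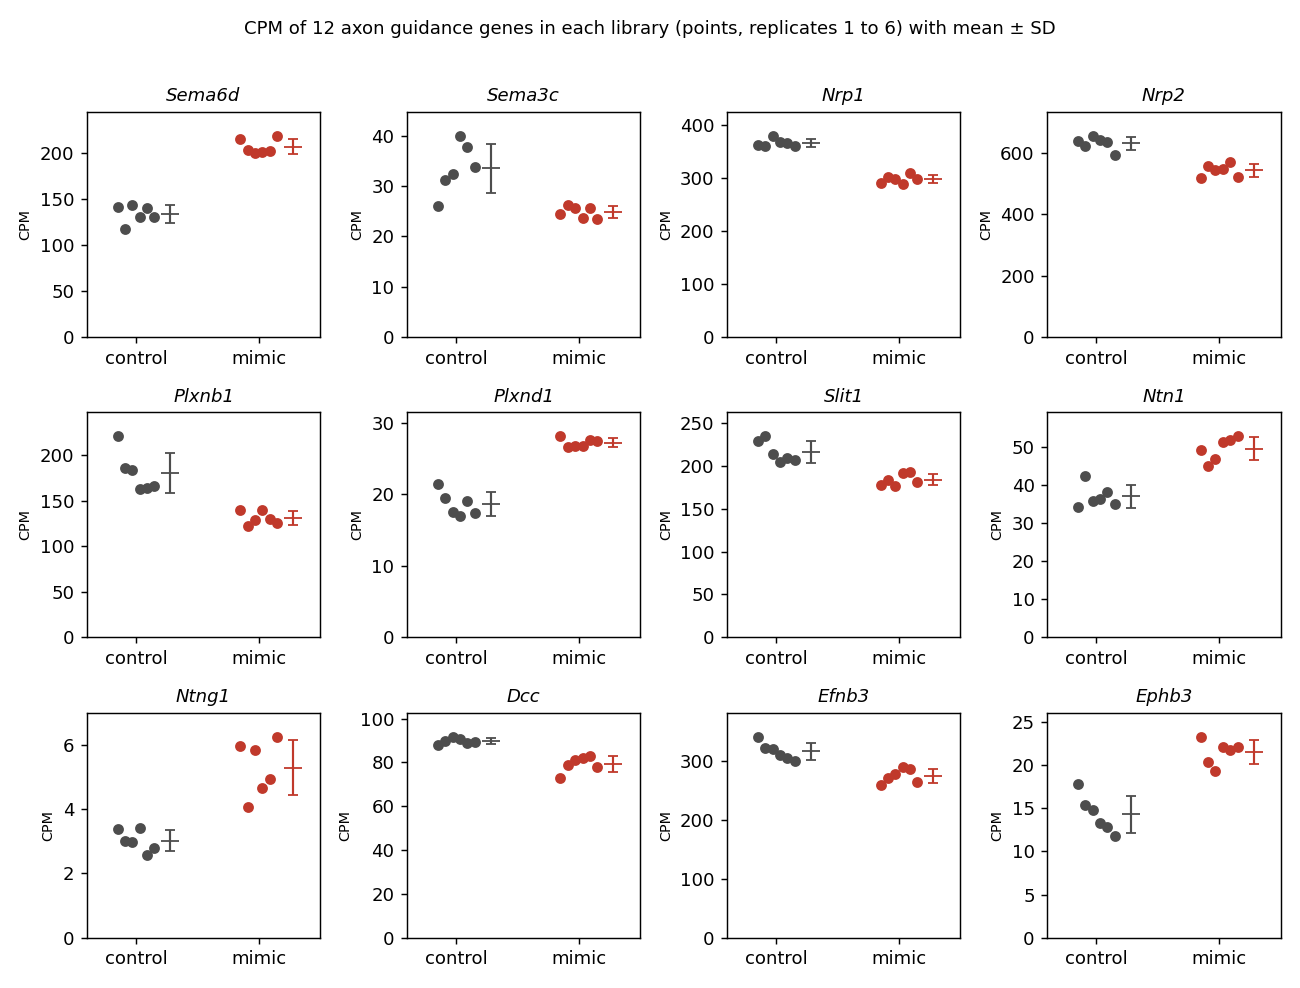
CPM of 12 members in each library, control (grey) and mimic (red), with points in the order of replicates 1 to 6 and the mean ± SD beside them; every vertical axis starts at 0. Apart from Sema3c, whose lowest control library (26.1 CPM) lies below the highest mimic library (26.4 CPM), the groups do not overlap.

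Of the 20 semaphorins, 5 fell and 2 rose. Of the 7 class 3 members, the secreted semaphorins, Sema3b and Sema3c fell and 5 did not pass. Sema3c had 26.1 to 40.0 CPM (median 33.2) in the control and 23.4 to 26.4 CPM (median 25.0) in the mimic group. Control replicate 1 was the lowest of its group, and 1 mimic library fell inside the control range. Sema3c fell by 0.44 (SE 0.078, adjusted p = 0.000542). Sema3b had 1.72 to 3.74 CPM (median 3.30) against 1.62 to 2.90 CPM (median 2.06). The ranges overlapped through control replicate 1 alone, the lowest of its group, and Sema3b fell by 0.59 (SE 0.16, adjusted p = 0.0160). Sema3a, the classical growth cone collapsing factor, had 9.75 to 15.4 CPM (median 13.6) in the control and 11.3 to 14.7 CPM (median 13.6) in the mimic group. Its log2 fold change was -0.01 (SE 0.098, adjusted p = 0.971) and turned positive in 6 of the 12 fits that left out 1 library, and Sema3d, with -0.40 (SE 0.23, adjusted p = 0.254), did not pass either.

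The largest rise among the semaphorins with this test was that of Sema6d, a transmembrane ligand of Plxna1. Control libraries had 117 to 143.5 CPM (median 135) and mimic libraries 199 to 218 CPM (median 203). There was no overlap, and Sema6d rose by 0.62 (SE 0.047, adjusted p = 4.09e-08), a 1.54-fold change. Sema4b, a transmembrane semaphorin, rose by 0.41 (SE 0.086, adjusted p = 0.00219), with 2 mimic libraries inside the control range. Others of these membrane-bound classes fell: Sema6c by 0.27 (SE 0.081, adjusted p = 0.0242), Sema4g by 0.21 (SE 0.045, adjusted p = 0.00206) and the lipid-anchored Sema7a by 0.17 (SE 0.053, adjusted p = 0.0289). Neither class 5 member passed, with log2 fold changes of 0.05 for Sema5b (0.020 without control replicate 6 and 0.093 without control replicate 1) and 0.08 for Sema5a (0.051 without control replicate 2).

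Known ligand and receptor pairs did not share 1 direction. Sema7a and its receptor Plxnc1 both fell. Sema4d, with a log2 fold change of -0.07 (adjusted p = 0.4525; -0.012 without control replicate 1), did not pass while its receptor Plxnb1 fell, and Sema3e (-0.02, between -0.05 and 0.003 over the alternatives, adjusted p = 0.817) did not pass while Plxnd1 rose. Sema6d rose, whereas Plxna1 did not pass.

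The Slits, secreted repellents, had 2 members that fell. Slit1 had 204 to 234.5 CPM (median 212) in the control and 177 to 193 CPM (median 183) in the mimic group. All mimic libraries were lower than all controls, and Slit1 fell by 0.23 (SE 0.041, adjusted p = 0.000413). Slit2, with 288 to 304 CPM (median 295.5) against 273 to 282 CPM (median 279.7), also had separate groups at a much smaller difference of -0.085 (SE 0.028, adjusted p = 0.0363). Slit3 had 113 to 145 CPM (median 127) against 125 to 135 CPM (median 132), with every mimic library inside the control range, and gave 0.02 (SE 0.051, adjusted p = 0.802), with a change of sign without control replicate 4 (-0.010). Of the 4 Robo receptors only Robo1 passed (25%, beside 22.2% of all tested genes). It had 84.6 to 90.2 CPM (median 88.2) in the control and 79.6 to 83.0 CPM (median 81.9) in the mimic group, which did not overlap, and fell by 0.10 (SE 0.030, adjusted p = 0.0216). Robo2, the other main neuronal Slit receptor, had 53.6 to 62.4 CPM (median 60.5) against 59.3 to 66.8 CPM (median 61.6). Its log2 fold change was 0.07 (SE 0.044, adjusted p = 0.308) and 0.044 without control replicate 2. Robo4, known from vascular endothelium, had a mean of 15.1 counts and gave -0.02 (adjusted p = 0.978), with either sign when single libraries were left out (-0.11 to 0.11).

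Netrin-1 and its receptor moved in opposite directions. Ntn1 had 34.1 to 42.4 CPM (median 36.0) in the control and 45.1 to 52.7 CPM (median 50.1) in the mimic group. No libraries overlapped, and Ntn1 rose by 0.42 (SE 0.054, adjusted p = 1.86e-05). Dcc, the receptor for netrin attraction, had 88.1 to 91.7 CPM (median 89.5) in the control and 72.8 to 82.9 CPM (median 79.9) in the mimic group. Again the groups were apart, and Dcc fell by 0.18 (SE 0.035, adjusted p = 0.00102). Ntn4, a laminin-related netrin of basement membranes, had 9.09 to 12.1 CPM (median 10.2) against 8.02 to 9.28 CPM (median 9.09), with 3 mimic libraries inside the control range. It fell by 0.23 (SE 0.068, adjusted p = 0.0231).

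Of the 4 Unc5 receptors, which mediate repulsion by netrin, only Unc5d passed (25%, beside 22.2% of all tested genes). It had 44.6 to 59.5 CPM (median 52.5) in the control and 39.9 to 48.7 CPM (median 45.5) in the mimic group, with 4 mimic libraries inside the control range, and fell by 0.20 (SE 0.064, adjusted p = 0.0348). Ntng1, a lipid-anchored netrin-G that binds the synaptic adhesion protein NGL-1 and not Dcc, had the largest rise among the members. It went from 2.57 to 3.40 CPM (median 3.00) in the control to 4.07 to 6.26 CPM (median 5.39) in the mimic group, without overlap. The rise was 0.81 (SE 0.11, adjusted p = 3.56e-05), on a mean of 125 counts. Its paralogue Ntng2 gave -0.09 (SE 0.084, adjusted p = 0.519; -0.014 without control replicate 1), and 558 of its exon bases are shared with 6530402F18Rik on the same strand.

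Of 9 EphA receptors 2 fell, 0 rose and 7 did not pass (22.2% called, the same share as over all tested genes). Of 5 EphB receptors 2 rose and 1 fell (60%). The classes were not tested against each other. The largest fall among the members was that of Epha2, known from epithelia and endothelium. Its mean of 45.7 counts was below the 50 required for library values, so it is given here because its value was seen. Control libraries had 1.62 to 2.85 CPM (median 2.09) and mimic libraries 0.695 to 1.26 CPM (median 0.876), with no overlap. The log2 fold change was -1.20 (SE 0.18, adjusted p = 7.98e-05). Of the endothelial markers Kdr and Flt1 fell, while the sums of the groups overlapped. Kdr made up most of the summed level (58.6 CPM in the control and 37.6 in the mimic group on average). Pecam1, Flt1, Cdh5 and Tek had control means of 0.72, 0.66, 0.42 and 0.16 CPM. The mural markers moved both ways, with Acta2 (-2.86) and Tagln (-1.74) lower and Rgs5 (1.16) higher. The part of these shifts in the fall of Epha2 was not tested.

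Epha8 had 19.6 to 24.4 CPM (median 20.2) in the control and 17.1 to 19.7 CPM (median 18.2) in the mimic group. A single mimic library lay inside the control range, and Epha8 fell by 0.20 (SE 0.058, adjusted p = 0.0172). Epha4, a receptor of both ephrin classes that acts at hippocampal spines, had 350.0 to 397 CPM (median 386) against 343 to 369 CPM (median 353). Its log2 fold change was -0.09 (SE 0.038, adjusted p = 0.102). Epha1, at a mean of 9.25 counts, shares 236 exon bases with the opposite-strand gene Zyx (1967 counts), so its counts are uncertain.

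Among the EphB receptors, Ephb3 rose most. It had 11.8 to 17.8 CPM (median 14.0) in the control and 19.3 to 23.3 CPM (median 21.9) in the mimic group, with no overlap. The rise was 0.60 (SE 0.080, adjusted p = 2.86e-05), a 1.51-fold change. Ephb1 had 26.2 to 32.4 CPM (median 27.5) against 29.6 to 32.8 CPM (median 31.4), and only control replicate 1 reached the mimic range. It rose by 0.16 (SE 0.049, adjusted p = 0.0284). Ephb2, which organises excitatory synapses, fell by 0.15 (SE 0.039, adjusted p = 0.0104), from 100.2 to 113 CPM (median 106) to 89.9 to 100.8 CPM (median 96.2), with 1 mimic library inside the control range. Ephb6, a receptor without kinase activity, gave -0.15 (adjusted p = 0.0517) with edgeR and passed in 6 of 17 alternatives, among them DESeq2 (adjusted p = 0.0430).

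No lipid-anchored ephrin-A ligand passed, with log2 fold changes from -0.15 (Efna3) to 0.17 (Efna2) over the 5 members. Single libraries moved these values: Efna1 went from -0.13 to -0.38 without mimic replicate 4, and Efna3 to -0.083 without control replicate 1. Of the 3 transmembrane ephrin-B ligands, Efnb3 fell and Efnb2 rose. Efnb3 had 299 to 340.4 CPM (median 314) in the control and 259 to 289 CPM (median 274) in the mimic group. The groups did not overlap, and Efnb3 fell by 0.20 (SE 0.039, adjusted p = 0.000999). Efnb2 had 54.4 to 60.2 CPM (median 57.8) against 60.9 to 63.4 CPM (median 61.5), a narrow separation with a log2 fold change of 0.10 (SE 0.033, adjusted p = 0.0348). Efnb1 gave 0.19 (SE 0.077, adjusted p = 0.0834).

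**Figure D3:**
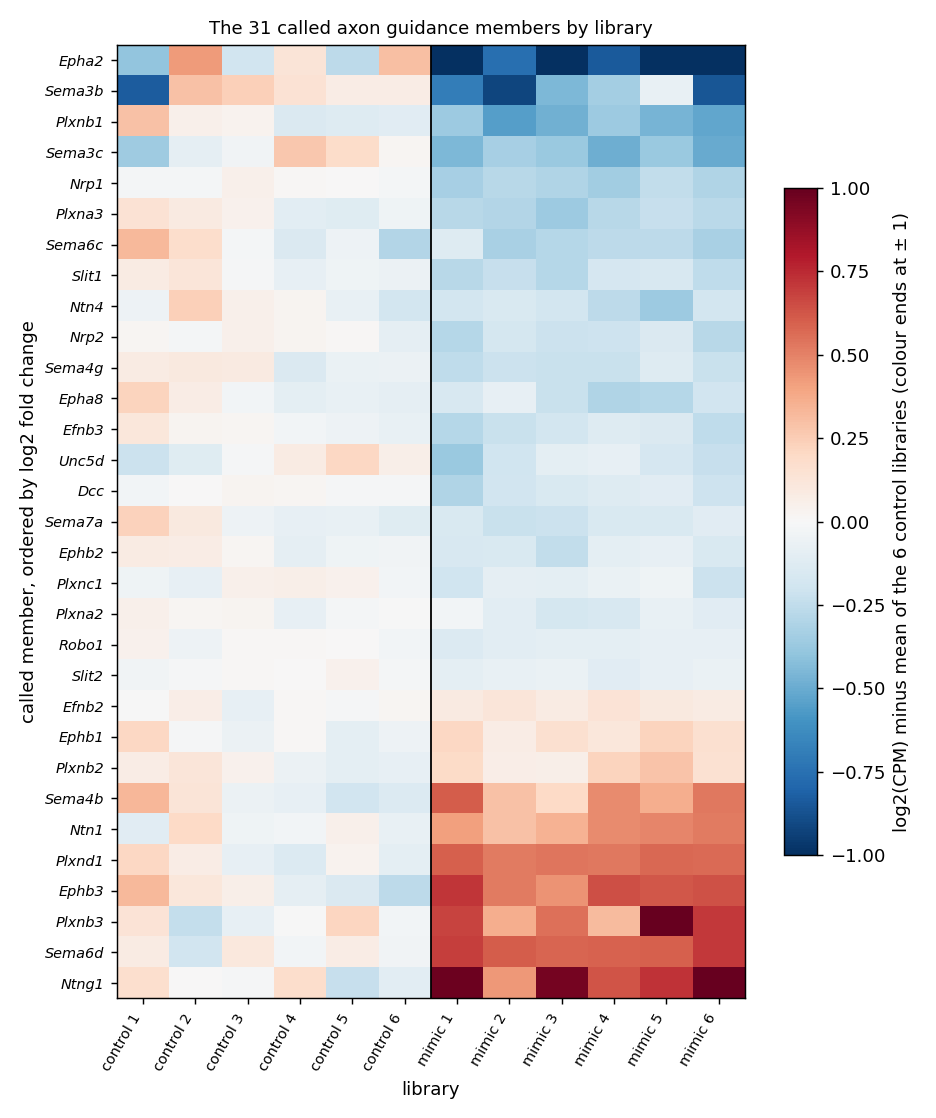
Log2 CPM of the 31 called members in each of the 12 libraries, minus the mean of the 6 control libraries, ordered by log2 fold change; blue is lower, red is higher, and the colour ends at ±1. Columns of the mimic libraries are blue for the 21 members that fell and red for the 10 that rose, with paler or differing cells for Sema3b in control replicate 1 and for members with changes near 0.1.

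Not all of these calls held when a library was left out. Of the 31, 20 held under all 17 alternatives of scaling, filter, tool, block and omitted library, and 11 were lost when at least 1 library was left out. Slit2 was lost in 10 of 12 omissions (all except control replicates 1 and 6, adjusted p 0.0533 to 0.0837), Efnb2 in 9 (all except control replicates 1 and 2 and mimic replicate 3, 0.0508 to 0.0883) and Unc5d in 8 (control replicates 3 to 6 and mimic replicates 1, 2, 5 and 6, 0.0541 to 0.0898). Plxnc1 was lost in 7 (control 3, 4, 5 and mimic 1, 2, 3, 6, 0.0580 to 0.1003), Plxna2 in 6 (control 2, 3 and mimic 2, 3, 4, 6, 0.0674 to 0.0880) and Ephb1 in 6 (control 3, 5, 6 and mimic 1, 5, 6, 0.0537 to 0.0689). Sema7a was lost in 5 (control 2 and mimic 1, 2, 3, 5, 0.0516 to 0.0732), and Ntn4 in 4 (control 2, 3 and mimic 4, 5, 0.0516 to 0.0600). Plxnb2 was also lost in 4 (control 4, 6 and mimic 4, 5, 0.0502 to 0.0587), Sema6c in 3 (control 2 and mimic 2, 6, 0.0531 to 0.0614) and Robo1 in 1 (mimic 1, 0.0524). Without the count filter, Efnb2, Plxna2, Plxnc1, Robo1, Slit2 and Unc5d also missed the threshold (0.0569 to 0.1999). Every called member kept its sign in all 17 alternatives. Without control replicate 1, which stood apart, 14 members rose and 23 fell: all 31 calls remained and 6 further members passed, namely Efnb1 (0.27), Unc5b (0.26), Efna2 (0.24) and Sema4c (0.15) higher, and Sema3d (-0.55) and Epha4 (-0.11) lower, with adjusted p from 0.00123 to 0.0222. Over all alternatives 9 uncalled members passed at least once, most often Ephb6 (6 of 17) and Sema4c (5 of 17), the pair that DESeq2 called in addition to the 31.

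In the longest annotated 3′ UTR, 13 of 71 members (18.3%) held a seed site of miR-148a-3p, against 21.9% of the 15082 tested genes with a 3′ UTR. Of these 13, 6 fell (Plxnb1, Slit1, Epha8, Dcc, Robo1 and Slit2), 2 rose (Ephb1 and Efnb2) and 5 did not pass (Efna3, Epha4, Epha5, Robo2 and Sema5b). Of the 58 members without a site, 15 fell and 8 rose. The median log2 fold change was -0.09 with and -0.016 without a site, beside -0.036 and 0.0013 for all tested genes with and without one. Over all tested genes, 636 fell and 386 rose of the 3307 with a site (30.9% called), and 1267 fell and 1665 rose of the 11775 without one (24.9% called). Examples are shown 5′ to 3′ on the transcript strand with the site in capitals (GRCm38): a site in the member with a site that fell most, one in Slit1, both sites of Robo1, and the only 8-base sites.
Plxnb1, chr9:109118276-109118305, plus strand: ggagactgtactgttcttgaGCACTGAcct
Slit1, chr19:41600343-41600372, minus strand: gagctgccttcccagcggacTGCACTGccg
Robo1, chr16:73044689-73044718, plus strand: ttgcccctgagatatggcatTGCACTGctt
Robo1, chr16:73045293-73045322, plus strand: gttgttgttgttttttgtaaTGCACTGttt
Epha4, chr1:77369428-77369457, minus strand: tttggcatctgttctcagcTGCACTGAgga
Ephb1, chr9:102040226-102040255, minus strand: tgtttaaccagtccattcaTGCACTGActc
The members with an 8-base site were Epha4, which did not pass, and Ephb1, which rose. The Ephb1 site lies far from the gene's annotated 3′ end (chr9:101922128, minus strand). Transcripts that reach this end may not hold it. Robo1, with 2 sites, fell by 0.10. The members that fell without a site included Nrp1, Nrp2, Plxna3, Sema3c and Efnb3. A match is a description of these letters, and binding was not measured.

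The negative control seed also had matches. Sites for it were found in 10 members (14.1%), against 4.42% of tested genes. Of these, Sema6d, Plxnd1 and Efnb2 rose, Ephb2 fell, and Efnb1, Ephb4, Plxna1, Sema3g, Sema4f and Unc5a did not pass. The median log2 fold change of the 10 was 0.065, and over all 666 tested genes with such a site it was 0.038, with 157 higher and 66 lower. The sites of the members that rose most are given in the same layout.
Sema6d, chr2:124666146-124666175, plus strand: caagtgattaacatatggtaCCCGGTGtca
Plxnd1, chr6:115954984-115955013, minus strand: gtgcagatccccaggggctCCCGGTGAcac
Ntng1, Plxnb3, Ephb3, Ntn1, Sema4b, Plxnb2 and Ephb1 rose without a site for the control. Because the controls themselves received this oligonucleotide, a rise with the mimic and a fall with the control cannot be told apart in these samples. Members had longer 3′ UTRs (median 1606 bases) than all tested genes (1173 bases).

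**Figure D4:**
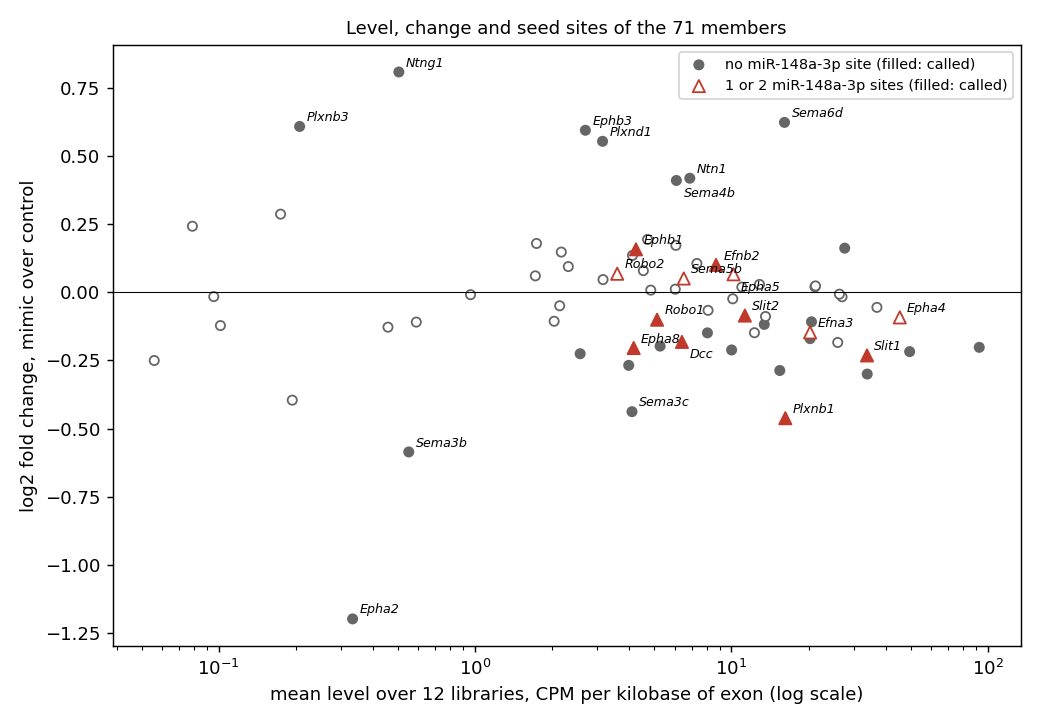
Log2 fold change of the 71 members against their mean level over 12 libraries in CPM per kilobase of exon (log axis); filled symbols passed the test, and red triangles mark the 13 members with a miR-148a-3p seed site. The triangles lie between -0.46 (Plxnb1) and 0.16 (Ephb1), and the members beyond 0.5 in either direction hold no site.

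Other genes of guidance signalling changed in both directions as well. Of 82 listed genes 20 fell and 12 rose (39.0%, beside 22.2% of all tested genes). Among 58 intracellular mediators 15 fell and 8 rose, and among 24 further ligands, receptors and adhesion molecules 5 fell and 4 rose. The largest falls by the naming rule were those of Dpysl5 (-0.39, SE 0.036, adjusted p = 4.78e-07) and Crmp1 (-0.35, SE 0.046, adjusted p = 2.50e-05), collapsin response mediators that act downstream of Sema3a, and Cntn2 (-0.32, SE 0.056, adjusted p = 0.000444), an axonal adhesion protein. The largest rises were those of Myo10 (0.62, SE 0.053, adjusted p = 2.24e-07), a filopodial motor, Dock1 (0.57, SE 0.041, adjusted p = 2.68e-08), a Rac activator downstream of Dcc, and Boc (0.56, SE 0.080, adjusted p = 7.16e-05), a sonic hedgehog co-receptor.

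The sources used here do not give the strand setting of the read counting, so reads from overlapping genes cannot be separated. Of the members that changed, Plxnb1, Nrp1 and Ephb1 share exon bases with another gene, which had at most 20 counts on average.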

How the data were processed

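Poly(A) RNA libraries (TruSeq) were sequenced as 50 bp single-end reads. Per the labels and the methods of the study, the authors aligned reads to mm10 with STAR (2.5.2b) and counted them per gene with featureCounts (Subread 1.5.1). The deposited raw counts of all 12 samples were used as they stand, and the deposited normalized table was not used. Genes that reached 5 counts in 6 or more of the 12 libraries entered the test with edgeR 4.0.16 (R 4.3.3, TMM, robust quasi-likelihood F-test, no covariate, two-sided), with Benjamini-Hochberg adjustment over all 18847 genes and a threshold of 0.05. The standard error is the size of the log2 fold change over the square root of F. DESeq2 1.42.0, as used by the study, was an alternative, besides RLE scaling, no filter, a filter at 10 counts, a replicate block and omission of each library. The test was checked on simulated counts. It called 28 of 68 genes with a simulated log2 fold change of 0.3, 46 of 66 at 0.6 and 60 of 66 at 1. Of 18647 unchanged genes it called 3. A member that did not pass may therefore still have changed.

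Symbols, exon lengths and 3′ UTRs came from GENCODE M21 (GRCm38, the same build as mm10), and 48349 of 48709 genes had a name. Levels are CPM scaled by TMM, per kilobase of union exon where genes are compared. Reads that match several paralogues can be lost or split by the counting. The members, the gene lists and the marker lists were chosen with earlier results of these data known. Library values are given for called members whose mean reached 50 counts, up to the 3 largest changes per family, and for 14 listed members, 27 in all. The level of miR-148a-3p itself was not analysed here.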

Additional observations from a re-analysis of the deposited data

Results flagged for a closer look

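Among the 27 members named by rule, 1 library stood far from the other 5 of its group in 2 cases, both in control replicate 1. Ephb1 had 32.4 CPM in control replicate 1, beside 26.2 to 28.3 CPM in the other control libraries. Sema3b had 1.72 CPM there, beside 3.21 to 3.74 CPM. Without that library Ephb1 rose by 0.20 (SE 0.039, adjusted p = 0.000532) and Sema3b fell by 0.69 (SE 0.13, adjusted p = 0.000302) with edgeR. Of the 54 groups of these members, chance alone gives about 2.7 such cases. Among the other 44 members, checked in the same way after the data were seen, 9 of 88 groups held such a library, where chance gives about 4.4. Of these 9, 3 were control replicate 1: Unc5b had 13.5 CPM there (8.84 to 10.1 in the other control libraries), Efnb1 19.3 CPM (13.8 to 15.4) and Efna4 5.00 CPM (2.81 to 3.47). The remaining 6 lay in control replicate 2 (Sema6a) and in mimic replicates 1 (Ntng2, Sema6c), 3 (Sema4c), 4 (Efna1) and 5 (Sema4g).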

How the results depend on the processing

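The counts of members that rose and fell (10 and 21) stayed within 1.5 times their value under all 17 alternatives. They were 10 and 21 with RLE scaling, 9 and 17 without a count filter, 11 and 22 with at least 10 counts (70 members tested), and 11 and 22 with DESeq2, which called all 31. With the replicate number as a block, 8 rose and 18 fell, 26 of the 31 calls held, and Efnb2, Plxna2, Plxnb2, Robo1 and Slit2 were lost (adjusted p 0.0536 to 0.1091). Over all genes the block gave 1950 higher and 1709 lower. Same-numbered samples correlated at -0.038 to 0.093 in their deviations from the group means, and 0 samples correlated best with their own number. These values gave no sign of pairing, but they cannot show whether same-numbered samples share a preparation. Leaving out each library in turn gave 7 to 14 members higher and 15 to 23 lower, 1880 to 2697 genes higher and 1612 to 2453 lower, and 11 to 17 further guidance genes higher and 15 to 27 lower. The members' median log2 fold change then ran from -0.071 (without control replicate 5) to -0.015 (without mimic replicate 2), beside an SD of 0.027 for this median over the mimic libraries. It was -0.056 without control replicate 3 and -0.055 without mimic replicate 5. Among the uncalled members, 10 changed sign under at least 1 alternative (Efna4, Robo4, Sema3a, Sema3e, Sema4a, Sema6a, Slit3, Unc50, Unc5a and Unc5c), so no direction is given for them. Sema3a ran from -0.074 to 0.035 and Slit3 from -0.010 (without control replicate 4) to 0.062 in these omissions, and the cause was not tested. At a mean under 50 counts, as for Epha2 and Plxnb3, counting error makes the size of the change less certain. Over the alternatives Epha2 ran from -1.30 to -1.11 and Plxnb3 from 0.52 to 0.67.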
